A study of Mus musculus with 3 samples.

Results

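The B lineage transcription factors Pax5, Ebf1, Spib, Pou2af1, Pou2f2, Bach2, Irf8, Foxo1, Ikzf1 and Ets1 build and maintain the B cell program. They were picked by gene symbol, with no threshold on their values but with earlier results of these data known, and all 10 were found among the 27088 genes of the table, each under 1 identifier. Levels were read in B cells sorted from mouse spleen by flow cytometry, in 1 RNA-seq library of the PBS group and 1 of the SJMHE1 group.

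Both groups were models of allergic rhinitis in female BALB/c mice, 13 weeks old by the labels. Mice of either group received 10 μg of ovalbumin (OVA) with 2 mg of aluminium hydroxide in 200 μl of PBS into the peritoneum on days 0, 7 and 14, and 100 μg of OVA into the nose from day 21 to 27 and again from day 29 to 35. On days 0, 14 and 28 the PBS group was injected under the skin with PBS, and the SJMHE1 group with 10 μg of SJMHE1, a peptide of the blood fluke Schistosoma japonicum, in incomplete Freund's adjuvant. Spleens were taken on day 36. The adjuvant went to the SJMHE1 group only, so peptide and adjuvant cannot be told apart. The library of healthy Control mice, the third group of the series, was not analysed here. Samples of 3 mice were mixed for each library, so there was no replicate check, and every difference below is a difference between 2 libraries.

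B cells arise in the bone marrow through a chain of factors that act on each other. Ikzf1, Foxo1 and Ebf1 open and drive the early program, Pax5 then commits the cell to the lineage, and mature B cells keep several of these factors together with Spib, Pou2af1, Pou2f2, Irf8, Bach2 and Ets1. When a B cell becomes a plasma cell, Prdm1 (Blimp-1) and Xbp1 take over and much of the program is shut down, with Bach2 and Pax5 acting as brakes on that step.

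The PBS library held 48267168 counts and the SJMHE1 library 51280237, of which the 10 factors took 0.557% and 0.551%. Levels are given in FPKM, fragment counts scaled by gene length and library size. Differences are given as the log2 ratio of FPKM, SJMHE1 to PBS, with a 95% exact Clopper-Pearson interval from the counts. Counting error alone enters these intervals, since reads of amplified RNA are not independent molecules and mice and sorts add spread that 1 library a group does not show. For the background, 12433 genes were compared, which reached 1 FPKM in either library or both and were at 0 in neither. B cell markers were abundant, but markers of some other cells were present too. Cd79a, a part of the B cell receptor complex, was at 835.02 and 835.20 FPKM in the PBS and SJMHE1 libraries. Cd3e, which defines T cells, was at 1.77 and 0.39 FPKM. Some neutrophil and erythroid markers were not low, with S100a9 at 196.02 and 266.48 FPKM and Hbb-bs at 49.24 and 62.25 FPKM.

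All 10 factors were expressed in both libraries, at counts between 9059 and 66206 per gene. Pou2af1 was highest, at 214.75 FPKM in PBS and 252.38 in SJMHE1, and Bach2 was lowest, at 18.87 and 15.68 FPKM. The level span from Bach2 to Pou2af1 was thus 11.4-fold in PBS and 16.1-fold in SJMHE1. From high to low the order was Pou2af1, Spib, Pax5, Ets1, Ikzf1, Irf8, Pou2f2, Ebf1, Foxo1 and Bach2, with 10 of 10 factors at the same rank in both libraries. Neighbours were set against the larger move of either gene between the libraries, the only spread at hand, and were called apart where the gap was larger than that in both libraries. By that measure Pou2af1 stood apart from Spib, Ets1 from Ikzf1, Ikzf1 from Irf8 and Irf8 from Pou2f2. Pou2f2 and Ebf1, and Ebf1 and Foxo1, were closer than that spread in both libraries. Spib and Pax5, Pax5 and Ets1, and Foxo1 and Bach2 were closer than it in PBS but farther apart than it in SJMHE1, where the log2 gaps were 0.25, 0.10 and 0.28.

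**Figure D1:**
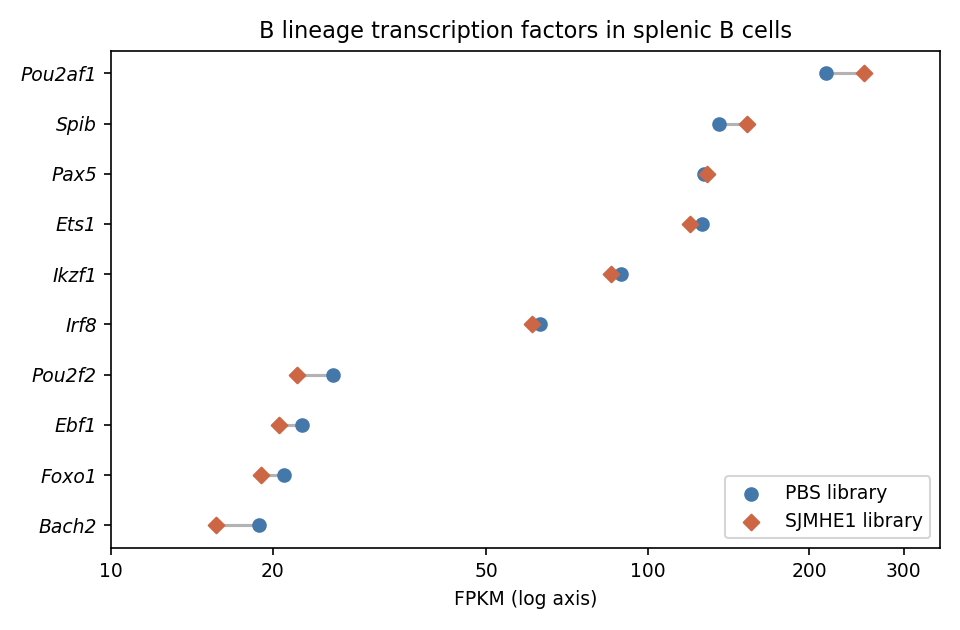
Level of each factor in FPKM on a log axis, with 1 point for the PBS and 1 for the SJMHE1 library. Pou2af1, Spib, Pax5 and Ets1 lie above 120 FPKM in both libraries, Ikzf1 and Irf8 between 60.77 and 88.96, and the other 4 below 26.

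Compared with the PBS library, no factor passed a log2 ratio of 1, the fold used in the study, in the SJMHE1 library, against 6.00% of the genes compared. Past a smaller log2 ratio of 0.25, which is a 1.19-fold difference, there was 1 of 10, Bach2, on the lower side. The background at that fold was 39.0% of the genes compared, 17.8% higher and 21.2% lower. The factors are abundant, and abundant genes moved less. Among the 2798 genes that reached 15 FPKM in each of the 2 libraries, a cutoff set just under the lowest factor after the values were seen, 1.11% passed a log2 ratio of 1 and 23.2% passed 0.25, with 9.72% higher and 13.4% lower. A count of 1 in 10 does not set the factors apart from that background.

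In direction, 3 factors were higher in the SJMHE1 library (Pou2af1, Spib and Pax5) and 7 were lower, a split that became 6 higher and 4 lower when FPKM were rescaled to equal sums. Their median log2 ratio was -0.067, beside -0.013 over all genes compared and -0.032 over the abundant genes, of which 57% were lower. The ratios ran from -0.27 for Bach2 to 0.23 for Pou2af1, a range that held 61.0% of the genes compared and 77.0% of the abundant ones. With FPKM as deposited, no counting interval of a factor held 0, and the widest reached 0.041 to either side. Counting error was thus small in that scaling. Intervals were not computed for the other scalings, some of which put factors nearer 0, such as Irf8 at -0.0083 with median-of-ratios size factors.

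**Figure D2:**
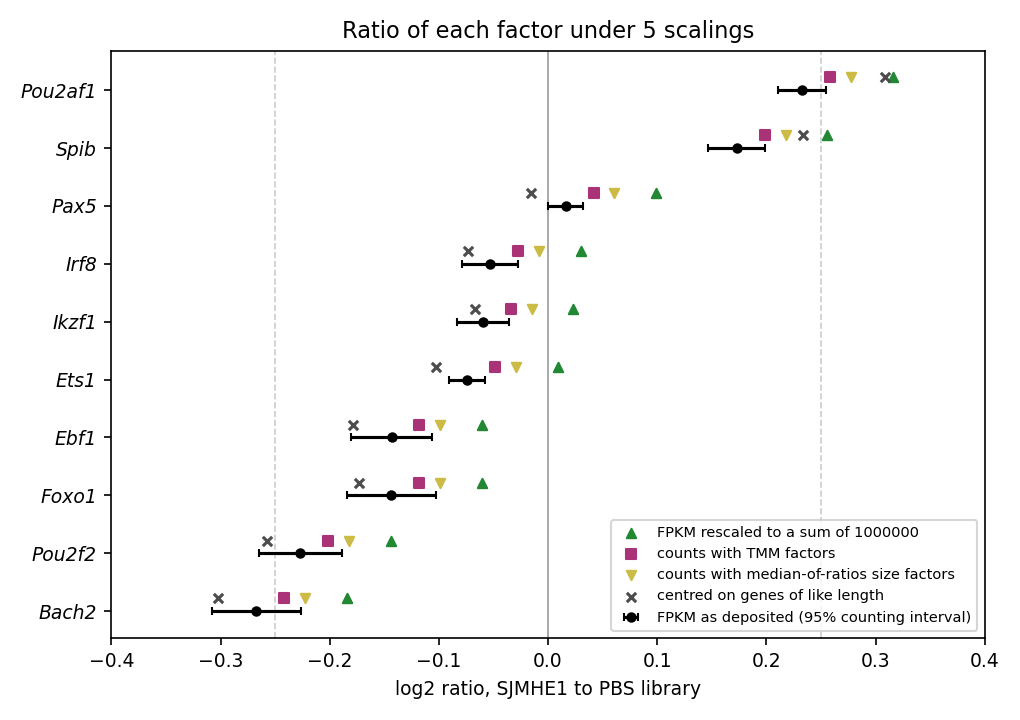
Log2 FPKM ratio of each factor, SJMHE1 to PBS, with its 95% counting interval and its value under other scalings of the libraries. Pou2af1 and Spib lie to the right of 0 and Bach2, Pou2f2, Ebf1 and Foxo1 to the left under each scaling drawn, whereas Irf8, Ikzf1 and Ets1 cross 0 when FPKM are rescaled to equal sums and Pax5 when centred on genes of like length. Dashed lines mark -0.25 and 0.25.

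**Figure D3:**
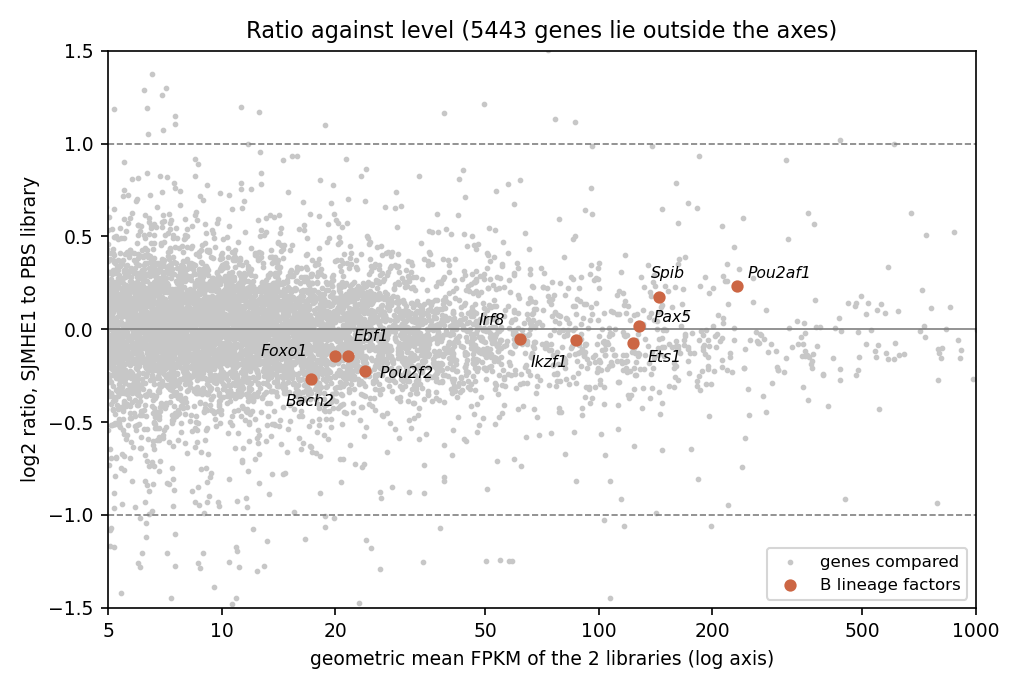
Log2 FPKM ratio, SJMHE1 to PBS, against the geometric mean FPKM of both libraries (log axis), with the 10 factors over the genes compared and dashed lines at log2 ratios of 1 and -1. The 3 factors that were higher in FPKM as deposited are among the 4 most abundant, and all 10 sit inside the cloud of genes of like level; 5443 genes lie outside the axes.

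Pax5 (ENSMUSG00000014030), the paired box factor that commits cells to the B lineage, hardly differed between the libraries. It is on the minus strand of chr4:44524757-44710487 (GRCm38/mm10, as are all coordinates here). It was at 127.27 FPKM (61848 counts) in PBS and 128.70 FPKM (66206 counts) in SJMHE1. The log2 ratio was 0.016, with a counting interval from 0.000285 to 0.032, and it became -0.015 when centred on genes of like length. Ebf1 (ENSMUSG00000057098, chr11:44617317-45008091, plus strand) acts upstream of Pax5 and beside it at many B cell genes. It went from 22.64 FPKM in PBS to 20.50 FPKM in SJMHE1, a log2 ratio of -0.14 (-0.18 to -0.11). Pax5 was 5.62 times as high as Ebf1 per length in PBS and 6.28 times as high in SJMHE1.

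Genes known to be switched on by Pax5 were spread around 0. Of 9 measured, 6 were higher and 3 lower, with a median log2 ratio of 0.012. Cd72, a co-receptor that dampens B cell receptor signals, was at 127.52 FPKM in PBS and 151.94 in SJMHE1 (log2 ratio 0.253). It was the only one past 0.25 on the higher side, by a small margin. The 2 past it on the lower side were also past 1, among them Lef1, a factor of immature lymphocytes and T cells, at 0.75 and 0.34 FPKM (-1.14). The targets shared with or driven by Ebf1 lay close to 0. Of 6 listed, 4 were measured, none passed 0.25, and the median was -0.018. Cd79b was at 625.00 and 594.35 FPKM and Blk, a kinase of the B cell receptor, at 171.18 and 167.04 FPKM. Igll1 and Vpreb1, which make the surrogate light chain of precursor B cells, had 0 counts each in PBS and 0 and 10 counts in SJMHE1.

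Genes that Pax5 is known to hold down were mostly lower. Of 7 measured, 6 were lower and 1 higher, with a median log2 ratio of -0.50, where 51.9% of all genes compared were lower. Among the 6, Prdm1 had a counting interval that held 0 (-0.23 to 0.08). The lower genes past 0.25 belong to other cell types or to activation. They were Cd28, a co-receptor of T cells (1.65 to 0.29 FPKM, log2 ratio -2.51), Ccl3, a chemokine (9.25 to 3.86 FPKM, -1.26), Flt3, a receptor of progenitors and dendritic cells (1.26 to 0.69 FPKM, -0.87), and Csf1r, the receptor of macrophages (3.71 to 2.63 FPKM, -0.50). The exception was Xbp1, a driver of secretion in plasma cells, at 25.54 FPKM in PBS and 33.83 FPKM in SJMHE1 (log2 ratio 0.41). Cd28, Flt3 and Csf1r are also in the T cell, dendritic cell and macrophage marker lists, whose medians were -2.06, -0.76 and 0.35, and the part of such cells in these ratios was not tested.

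Of the ETS family, Spib and Ets1 moved apart. Spib (ENSMUSG00000008193, chr7:44525993-44532071, minus strand) works with Spi1 (PU.1) in signalling through the B cell receptor. Its level was 135.95 FPKM (21402 counts) in PBS and 153.26 FPKM (25540 counts) in SJMHE1, which is higher by a factor of 1.13 and a log2 ratio of 0.17 (0.15 to 0.20). Ets1 (ENSMUSG00000032035, chr9:32636221-32757820, plus strand) restrains the passage to plasma cells, and T cells express it too. It was at 126.36 FPKM (58789 counts) in PBS and 120.02 FPKM (59109 counts) in SJMHE1, a log2 ratio of -0.07 (-0.09 to -0.06) that became 0.0087 with equal FPKM sums. The level of Spib over Ets1 within a library is not touched by 1 scaling factor per library. It was 1.08 in PBS and 1.28 in SJMHE1, a log2 change of 0.25 (0.22 to 0.28). Centring on genes of like length, set gene by gene, moved both log2 ratios, to 0.23 for Spib and -0.10 for Ets1. Spi1 was at 22.81 and 21.70 FPKM, so Spib exceeded it 5.96-fold in PBS and 7.06-fold in SJMHE1. Such pairs of genes, here and below, were picked with their values known.

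The promoter of Spib, 250 bases before to 50 after its start (RefSeq, GRCm38.p6, chr7:44532022-44532321, minus strand, read 5′ to 3′ along the gene), is shown since Spib was among the 3 factors that were higher. Capitals mark a pair of overlapping matches to the Ebf1 core CCCNNGGG, from 65 and from 64 bases before the start.
Spib promoter: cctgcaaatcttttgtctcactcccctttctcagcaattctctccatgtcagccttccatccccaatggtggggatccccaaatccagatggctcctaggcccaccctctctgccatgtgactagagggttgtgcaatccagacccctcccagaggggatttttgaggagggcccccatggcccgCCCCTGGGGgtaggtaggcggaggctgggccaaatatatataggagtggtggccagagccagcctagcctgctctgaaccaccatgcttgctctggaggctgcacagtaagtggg
That core was in 4 of 12 promoters of the factors (Spib, Foxo1, Irf8 and Ikzf1) and in 13.7% of all 32851 promoters. The fixed letters of the core are all G or C. Median GC was 56.7% in the promoters of the factors and 52.7% in all promoters. The part of base composition in these shares was not tested. The capitals mark a match in sequence and no measured site.

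The octamer pair split in direction between the libraries. Pou2f2 (Oct2; ENSMUSG00000008496, chr7:25087344-25179726, minus strand) binds the octamer of immunoglobulin promoters, and Pou2af1 (OCA-B or Bob1; ENSMUSG00000032053, chr9:51213708-51240080, plus strand) is the co-activator that sits on it. Pou2f2 was at 25.91 FPKM (11729 counts) in PBS and 22.14 FPKM (10607 counts) in SJMHE1, a log2 ratio of -0.23 (-0.26 to -0.19). Pou2af1 was at 214.75 FPKM (30047 counts) and 252.38 FPKM (37380 counts), a log2 ratio of 0.23 (0.21 to 0.25) and a factor of 1.18. Pou2f2 was thus lower and Pou2af1 higher in the SJMHE1 library, under every scaling tried. Per length, Pou2af1 stood 8.29-fold above Pou2f2 in PBS and 11.4-fold in SJMHE1, a log2 change of 0.46 (0.42 to 0.50).

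The promoters of both genes are shown for this split (RefSeq, GRCm38.p6, read along the gene). That of Pou2af1 is chr9:51213440-51213739 on the plus strand. That of Pou2f2 is chr7:25132411-25132710 on the minus strand, at a start 47266 bases downstream of the gene start in the table. Capitals in Pou2f2 mark a match to the ETS-IRF composite core GGAANNGAA, 119 to 111 bases before the start, and one to the Ets1 core CCGGAAGT, 71 to 64 bases before it, both on the other strand.
Pou2af1 promoter: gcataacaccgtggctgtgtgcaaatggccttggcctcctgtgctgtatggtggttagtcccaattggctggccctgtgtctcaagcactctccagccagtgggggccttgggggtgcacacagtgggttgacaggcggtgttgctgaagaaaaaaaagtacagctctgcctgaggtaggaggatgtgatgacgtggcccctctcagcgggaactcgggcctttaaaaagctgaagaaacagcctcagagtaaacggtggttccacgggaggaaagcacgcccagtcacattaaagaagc
Pou2f2 promoter: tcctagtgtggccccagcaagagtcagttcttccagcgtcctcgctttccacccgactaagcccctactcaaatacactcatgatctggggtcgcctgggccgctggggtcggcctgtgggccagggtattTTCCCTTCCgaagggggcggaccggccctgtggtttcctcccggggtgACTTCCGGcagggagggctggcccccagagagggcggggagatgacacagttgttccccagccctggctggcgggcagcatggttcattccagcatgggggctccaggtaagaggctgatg
The composite core was in 8.24% of all promoters and in those of Pou2f2 and Bach2, and the Ets1 core was in 3.89% and, of the factors, in Pou2f2. Both cores share the letters GGAA. The octamer ATGCAAAT was in 1.74% of all promoters and in none of the 12, and Pou2af1 held no match to any of the 9 motifs searched on both strands.

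Known targets of the octamer pair gave 3 measured genes and a median of 0.013. Cxcr5, the homing receptor for the follicle, was at 66.11 and 67.12 FPKM, and Cd36, a scavenger receptor, at 13.37 and 13.49 FPKM. Il5ra, the receptor chain for interleukin 5, was at 12.54 FPKM in PBS and 9.26 FPKM in SJMHE1, a log2 ratio of -0.44 and the only one past 0.25.

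Irf8 (ENSMUSG00000041515, chr8:120736358-120756694, plus strand), a factor of follicular and germinal centre B cells that dendritic cells also use, differed little. It was at 63.05 FPKM (24419 counts) in PBS and 60.77 FPKM (24917 counts) in SJMHE1, a log2 ratio of -0.05 (-0.08 to -0.03) that turned to 0.030 with equal FPKM sums. Its relative Irf4, which rises in activated B cells and plasma cells, was at 136.65 and 105.90 FPKM, a log2 ratio of -0.37. Irf8 therefore stood at 0.461 of the Irf4 level in PBS and 0.574 in SJMHE1, a log2 change of 0.31 (0.28 to 0.35). Spib and Irf8 can bind DNA together, and Spib exceeded Irf8 2.16-fold in PBS and 2.52-fold in SJMHE1.

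Ikzf1 (Ikaros; ENSMUSG00000018654, chr11:11685003-11772926, plus strand), a zinc finger factor of all lymphocytes, was at 88.96 FPKM (28210 counts) in PBS and 85.35 FPKM (28652 counts) in SJMHE1. The log2 ratio was -0.06 (-0.08 to -0.04), and 0.023 with equal FPKM sums. Ikzf3 (Aiolos), which mature B cells express beside it, was at 68.93 and 82.11 FPKM, a log2 ratio of 0.25. The level of Ikzf1 over Ikzf3 was 1.29 in PBS and 1.04 in SJMHE1, a log2 change of -0.31 (-0.34 to -0.28). Ikzf2 (Helios), a factor of T cells, was at 0.67 and 0.10 FPKM.

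Bach2 (ENSMUSG00000040270, chr4:32238804-32586104, plus strand), a repressor that delays the passage to plasma cells and supports class switching, showed the lowest ratio of the 10. It was at 18.87 FPKM (10298 counts) in PBS and 15.68 FPKM (9059 counts) in SJMHE1, a factor of 0.831 and a log2 ratio of -0.27 (-0.31 to -0.23). Of the genes compared, 19.9% had a lower ratio. Bach2 stayed lower under every scaling tried, but it was past 0.25 by a small margin, which equal FPKM sums (-0.18) and counts with TMM factors (-0.24) or median-of-ratios size factors (-0.22) took away. Prdm1, which Bach2 represses, was at 2.31 and 2.19 FPKM, a log2 ratio of -0.08 (-0.23 to 0.08). Bach2 exceeded Prdm1 8.17-fold in PBS and 7.16-fold in SJMHE1, a log2 change of -0.19 (-0.35 to -0.03).

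The promoter of Bach2 is shown since it alone passed 0.25. It is chr4:32417185-32417484 on the plus strand (RefSeq, GRCm38.p6), at a start 178631 bases downstream of the gene start in the table. Capitals mark the composite core GGAANNGAA on the other strand, 16 to 8 bases before the start, with the same letters as the match in Pou2f2.
Bach2 promoter: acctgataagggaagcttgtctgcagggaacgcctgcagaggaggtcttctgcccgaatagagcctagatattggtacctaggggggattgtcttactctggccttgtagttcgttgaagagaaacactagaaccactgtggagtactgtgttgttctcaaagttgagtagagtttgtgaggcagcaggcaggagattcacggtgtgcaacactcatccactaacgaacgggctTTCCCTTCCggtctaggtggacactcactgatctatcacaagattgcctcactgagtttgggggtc
Among the remaining motifs, the interferon response core GAAANNGAA (8.56% of all promoters) was in 1 promoter of Ebf1, and the Ikaros core TGGGAA (25.6%) was in 3 promoters, of Irf8 and Ebf1. The Spib core GAGGAAGT (3.20%), which shares GGAAGT with the Ets1 core, the forkhead core GTAAACA (3.65%) and the AP-1-like core TGAGTCA (5.2%) were in none of the 12. RefSeq gave a promoter for 9 of the 10 factors, all but Ets1.

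Foxo1 (ENSMUSG00000044167, chr3:52268336-52353221, plus strand), a forkhead factor held out of the nucleus by PI3K signalling, drives recombination in precursors and homing in mature cells. It was at 21.01 FPKM (9991 counts) in PBS and 19.02 FPKM (9574 counts) in SJMHE1, a log2 ratio of -0.14 (-0.18 to -0.10). Its known targets split. Of 10 listed, 8 were measured, with 3 higher and 5 lower and a median of -0.048. Ccr7, the homing receptor for the T cell zone, was at 141.80 FPKM in PBS and 80.47 FPKM in SJMHE1 (log2 ratio -0.82), and Il7r, the interleukin 7 receptor of precursors and T cells, at 2.57 and 0.41 FPKM (-2.65). Cdkn1b, a cell cycle inhibitor, was at 22.10 and 27.21 FPKM (0.30). S1pr1, a receptor for exit from lymphoid organs (76.50 and 89.22 FPKM), and its regulator Klf2 (490.78 and 486.20 FPKM) stayed within 0.25. Rag1 and Rag2, the recombinases of precursors, had 30 and 4 counts in PBS and 11 and 0 in SJMHE1.

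Other transcription factors of B cells had a median close to that of the 10, with a wider range. That list is longer and reaches lower levels, and its lowest ratio was that of Lef1 (0.75 and 0.34 FPKM, -1.14). Of 27, 11 were higher and 16 lower, 4 were past 0.25 in each direction and the median log2 ratio was -0.050. Higher past 0.25 were Xbp1, Ikzf3, Bcl6, the factor of germinal centres (11.06 and 13.49 FPKM, 0.29), and Stat6, which carries interleukin 4 signals (52.65 and 63.24 FPKM, 0.26). Ikzf3 passed 0.25 by a small margin only (0.252). Lower past it were Lef1, Irf4, Rel, an NF-κB subunit of activated B cells (104.77 and 78.08 FPKM, -0.42), and Id2, an inhibitor of E proteins (6.99 and 4.16 FPKM, -0.75). Of 30 paralogs of the 10 factors, 24 were measured, with 10 higher and 14 lower and a median of -0.053. Besides Irf4, Ikzf2 and Ikzf3, those past 0.25 included Gabpa (11.73 and 13.98 FPKM, 0.253, a small margin) on the higher side. Ets2 (19.97 and 16.01 FPKM), Irf7 (9.08 and 7.25 FPKM) and Foxo4 (10.98 and 9.06 FPKM) were among those on the lower.

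**Figure D4:**
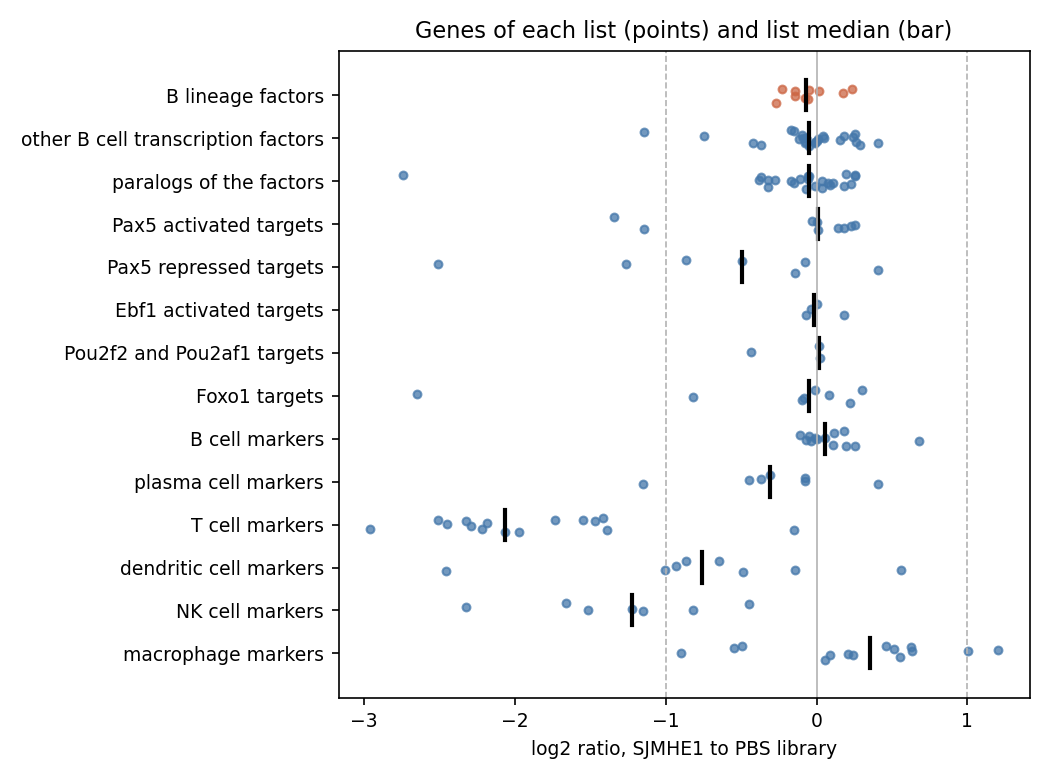
Log2 FPKM ratio, SJMHE1 to PBS, of each measured gene in the factor, paralog, target and marker lists, with a bar at the median of each list and dashed lines at -1 and 1. The 10 factors lie between -0.27 and 0.23, while all 15 T cell markers lie below 0 with a median of -2.06.

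Ratios among the factors followed their levels. Across the 10, the log2 ratio and the mean level had a Spearman rho of 0.92, beside -0.06 across the abundant genes. Gene length ran with the ratio as well. Among abundant genes the median log2 ratio was -0.11 at a merged exon length of 1 to 2 kb (357 genes), -0.08 at 2 to 3 kb (436 genes), 0.031 at 8 to 10 kb (140 genes) and 0.079 above 10 kb (160 genes). Pou2af1 and Spib, with merged exons of 2549 and 2868 bases, were higher where genes of their length leaned lower. Bach2, Ebf1, Foxo1 and Pou2f2, with 8243 to 9940 bases, were lower where genes of their length leaned higher. Ets1, Pax5, Irf8 and Ikzf1 also lay below the median of their length class, by smaller gaps, which makes 8 of 10. The Spearman rho of ratio and length was -0.70 across the 10 factors and 0.24 across abundant genes. For the percent GC of the longest transcript, the rho with the ratio was 0.20 across the 10 factors and -0.19 across abundant genes. Centring each factor on genes of like length put Pou2af1 at 0.31, Spib at 0.23, Pou2f2 at -0.26 and Bach2 at -0.30, so 3 of the 10 were then past 0.25. The share of all genes past 0.25 under that centring was not computed, so this count does not set the factors apart. The points share 2 libraries, and these correlations across genes are descriptions only.

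**Figure D5:**
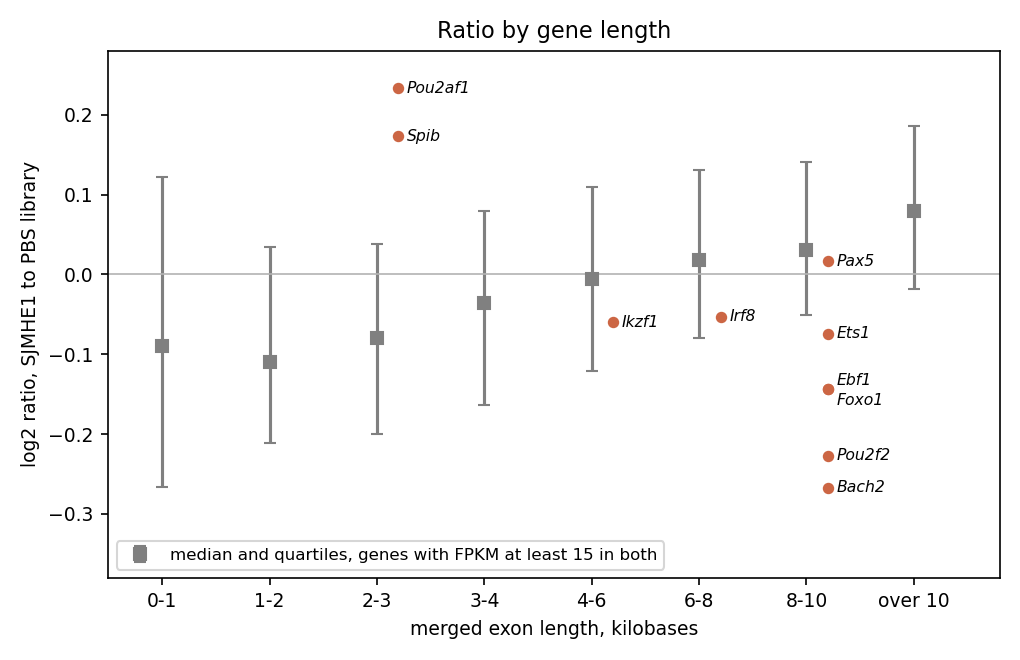
Log2 FPKM ratio, SJMHE1 to PBS, against merged exon length, with the median and quartiles over abundant genes in each length class and the 10 factors as points. Medians go from -0.11 at 1 to 2 kb to 0.079 above 10 kb, while Pou2af1 and Spib lie above the median of their class and the other 8 factors below it.

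Markers of other cells differed between the libraries as well. In a bulk library, fewer cells of a type and less RNA per cell cannot be told apart. All 15 T cell markers were lower in the SJMHE1 library, 14 of them past a log2 ratio of 1, and their summed level was 56.8 FPKM in PBS and 33.3 FPKM in SJMHE1. Lck was the largest part of both sums (27.92 and 25.19 FPKM). Each other T cell marker was below 5 FPKM in both libraries, and none was at 0. The 7 measured NK cell markers were all lower (sum 11.4 and 5.76 FPKM), as were 7 of 8 dendritic cell markers (sum 23.6 and 17.6 FPKM), with Batf3 at 0.30 and 0 FPKM. Ikzf1, Ets1, Foxo1 and Bach2 are also expressed by T cells and Irf8 and Spib by dendritic cells, and the part of such cells in their ratios was not tested.

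Markers of B cells themselves lay closer to 0. Of 13, 8 were higher and 5 lower, with a median of 0.058 and a summed level of 12845 FPKM in PBS and 12895 in SJMHE1. Cr2 (CD21), highest on marginal zone cells, was at 136.27 and 218.29 FPKM (log2 ratio 0.68). Of 14 macrophage markers 11 were higher and 3 lower (sum 37.5 and 35.4 FPKM). Among the higher ones, the counting intervals of Spic, Cd163, Mertk and Fcgr1 held 0, and those of the 3 lower ones did not. The lower ones were Cd68 (12.61 and 6.77 FPKM), Adgre1 (4.66 and 3.19 FPKM) and Csf1r (3.71 and 2.63 FPKM). All 9 erythroid markers were higher (sum 154 and 203 FPKM), and of 8 neutrophil markers 3 were higher and 5 lower (sum 343 and 443 FPKM). The intervals of Ltf among the higher and of Mmp8 and Ly6g among the lower neutrophil markers held 0. Of 7 plasma cell markers, 6 were lower and Xbp1 was higher, with a median of -0.31. The part of these shifts in the ratios of the 10 factors was not tested.

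Reads of overlapping genes were few beside those of the factors. On the opposite strand, exons of Bach2os cover 5.40% of the Bach2 exons (83 and 58 counts), those of 5730488B01Rik 7.18% of Pax5 (589 and 688 counts), those of Gm12462 1.41% of Pax5 (69 and 65 counts) and those of Gm20402 7.78% of Foxo1 (0 counts in both). Whether the counting used strand is not given in the sources used here, so reads in these stretches cannot be assigned to a strand. Mir6537 lies on the same strand within Pou2f2 and had 1 and 4 counts.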

How the data were processed

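Splenic B cell samples of 3 mice per group were mixed, depleted of ribosomal RNA and sequenced, which gives 3 libraries in the series, 1 per group. The authors deposited whole-number counts per gene, not normalized, and FPKM rounded to 2 decimals. The submitters' processing notes name bcl2fastq 2.0, HISAT2, StringTie, DESeq2, limma and mm10, and the strand setting is not given in the sources used here. Deposited FPKM scale counts by merged exon length and a library size, so a shift in a few abundant genes moves all others. The library size implied by abundant genes had a median of 5.49e+07 fragments in PBS and 5.81e+07 in SJMHE1. Both are larger than the counts summed over genes. In the table, 2 value columns carry a name that fits no sample's label and were not used, so the Control library was not analysed here and no comparison with it was made.

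The log2 ratio of FPKM, SJMHE1 to PBS, was taken without a pseudocount. Genes compared reached 1 FPKM in either library or both and were at 0 in neither. For gene lists the minimum was 0.1 FPKM. The floor of 3 counts is 0.0622 per 1000000 counts in PBS and 0.0585 in SJMHE1. With 1 library a group no test could be fitted, and no p-value is given. The alternatives were pseudocounts of 0.1 and 1, FPKM rescaled to a sum of 1000000 per library, centring on the median, counts per 1000000, edgeR TMM factors, DESeq2 median-of-ratios size factors, other filters and protein-coding genes alone. Centring on genes of like length (abundant genes with a length within 1.25 times) and the background of genes reaching 15 FPKM in each library were added after the values were seen. Exon lengths and overlaps are from GENCODE M21. Promoters are from RefSeq (GRCm38.p6), and motifs were searched as plain letters on both strands.

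The factors and the gene lists were chosen with earlier results of these data known. Named genes are every factor and, of the other lists, genes past a log2 ratio of 0.25 and the most abundant, at most 8 a list. The values of some of them are left out here. Genes named outside that rule, such as Prdm1, Spi1, Cd3e and those with few counts, were chosen after their values were seen. Python 3.11.15 with pandas 2.3.3 and scipy 1.17.1 and R 4.3.3 with edgeR 4.0.16 and DESeq2 1.42.0 were used, and the calculations were tested on simulated data.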

Additional observations from a re-analysis of the deposited data

How the results depend on the processing

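With 1 library a group, leaving out a replicate was not possible. No paired analysis was possible because 1 library a group leaves no pairs and no test was run. Comparisons with the Control library were not run. The order of the 10 factors by level did not change with counts per kilobase. The median log2 ratio of the 10 factors was -0.041 with TMM factors, -0.022 with median-of-ratios size factors, -0.088 when centred on genes of like length and 0.016 with FPKM rescaled to equal sums, which moved the median of all genes by 0.083. With rescaled FPKM, Irf8 (0.030), Ikzf1 (0.023) and Ets1 (0.0087) changed sign. At that setting 2 of the 10 factors were past 0.25, beside 5101 of the 12433 genes compared. With like-length centring Pax5 changed sign (-0.015) and 3 factors were past 0.25. The share over all genes was not computed for that centring, so the count of 3 has no background. No factor passed 1 under any alternative run.

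Rescaled FPKM gave list medians of 0.033 for other B cell factors, 0.030 for paralogs, 0.095 for Pax5 activated, 0.066 for Ebf1 activated, 0.096 for octamer and 0.035 for Foxo1 targets, 0.14 for B cell and -0.23 for plasma cell markers. Median-of-ratios factors gave 0.056 for Pax5 activated, 0.027 for Ebf1 activated and -0.0040 for Foxo1 targets, 0.10 for B cell and -0.26 for plasma cell markers, and TMM factors gave 0.0080 for Ebf1 activated targets, 0.083 for B cell and -0.28 for plasma cell markers. Centring on the median gave 0.067 for B cell markers. A pseudocount of 1 put T cell markers at -0.89, dendritic cell markers at -0.20 and NK cell markers at -0.26, and one of 0.1 put T cell markers at -1.67, since it shrinks the ratios of genes at low levels.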
